A study of Mus musculus with 9 samples.

Results

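Feeding of the marine green microalga Tetraselmis chuii to scopolamine-injected mice was examined across all genes by setting 3 RNA sequencing libraries of whole eyeballs titled T.chuii 1 to 3 against 3 titled DES 1 to 3, out of 9 libraries in the series. All mice were female BALB/C, an albino inbred strain, and wild type. The DES mice received scopolamine by intraperitoneal injection and water. The T.chuii mice received the same injection and the alga at 300 mg/kg. Both regimens began at 6 weeks of age and ran for 2 weeks, and the tissue is labelled postnatal day 56. The other 3 libraries (CON), from mice given water and no injection, entered the gene filter, the scaling and the estimate of spread between libraries. Their range is quoted for a few genes. No group received the alga without scopolamine, so every T.chuii value is also a value under scopolamine. The labels name 15 mice for the 3 groups and do not say whether a library holds 1 eye, both eyes or a pool, so the p-values measure the spread between libraries.

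Scopolamine blocks muscarinic acetylcholine receptors, which drive tear secretion from the lacrimal gland, and repeated dosing is a common way to induce dry eye in mice. Tear loss in such models is known for inflammation and damage of the corneal and conjunctival epithelium. Microalgae carry carotenoids, polyunsaturated fatty acids and antioxidant enzymes, and gene lists for the handling of these nutrients and for oxidant defence are therefore described beside those for dry eye. A whole eyeball holds cornea, lens, retina, pigment epithelium and sclera, and can carry extraocular muscle, optic nerve and orbital fat on its surface. In such bulk RNA, fewer cells of a type and less RNA per cell cannot be told apart.

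The 6 libraries held between 39524995 and 53198040 assigned reads. Levels are given as scaled CPM, a gene's reads relative to the scaled total of its library. Lists of tissue markers showed that the share of RNA from each eye tissue differed between libraries. Corneal epithelium markers stood at 2.47, 0.458 and 0.649 times the rod photoreceptor markers in DES 1 to 3 and at 3.79, 0.337 and 0.456 times in T.chuii 1 to 3, so that library 1 of each group was rich in corneal and poor in retinal RNA. The 6 lens crystallin genes tested took 0.0408% of reads in DES 2 and between 1.21% and 5.86% in the other 5. The rest of the 16 listed, among them Cryba1, Crybb2 and Crygs, were not analysed here, so these shares cover part of the list only. Over 17225 genes of at least 1 CPM, the median absolute log2 difference between 2 libraries was between 0.31 and 0.39 within DES, between 0.20 and 0.46 within T.chuii and between 0.16 and 0.48 across the groups. The closest of all 15 pairs was DES 2 with T.chuii 3, a pair from different groups. The first principal component held 54.7% of the variance and set T.chuii 1 and DES 1 on one side and the other 4 libraries on the other. Several results below are therefore also given without 1 of these libraries.

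**Figure D1:**
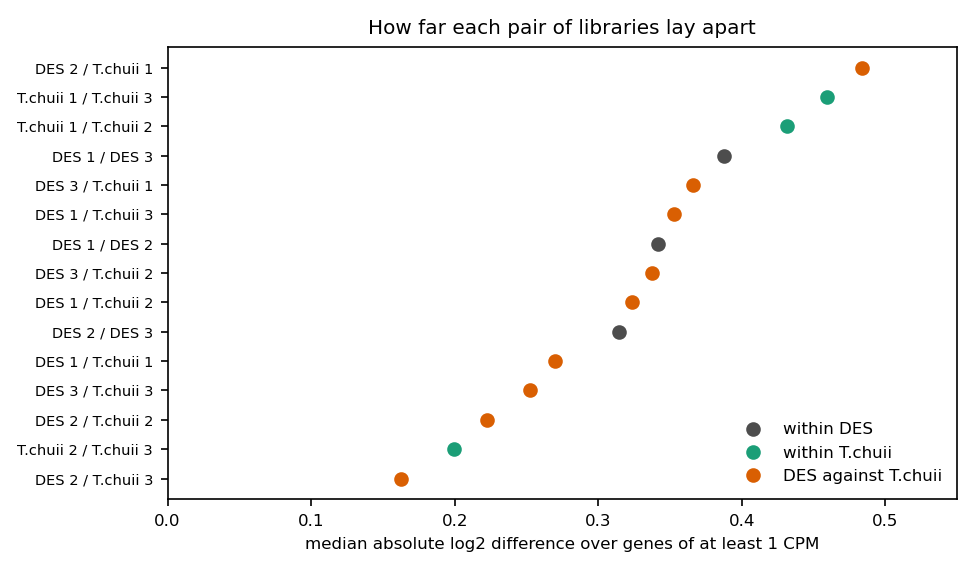
Median absolute log2 difference between each pair of the 6 libraries over genes of at least 1 CPM (horizontal axis), with 1 point per pair, coloured by whether the pair lies within DES, within T.chuii or across the groups. Pairs across the groups span the whole range, from 0.16 to 0.48.

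No gene passed the test of T.chuii against DES. Limma-voom, fitted to the read counts of all 9 libraries, called 0 of 21287 genes (0%) at a Benjamini-Hochberg adjusted p of 0.05, and the smallest adjusted p was 0.9999. Here and below, a gene's higher or lower mean is that of the fitted log2 values, which can differ in sign from the mean CPM. At an unadjusted p under 0.05 there were 233 genes, of which 159 had a higher mean in T.chuii (0.747% of genes) and 74 a lower mean (0.348%). Without T.chuii 1 these became 133 higher and 286 lower. Limma-trend on the same values also called 0, with 244 at an unadjusted p under 0.05. When libraries of the same number were treated as pairs, the 9-library fit called 0 and gave 415 genes at an unadjusted p under 0.05. The same block on the 6 libraries alone gave 1245 such genes and called 2. These were Mobp (log2 change 6.79 ± 0.32, adjusted p = 8.21e-05) and Nmrk2 (2.01 ± 0.19, adjusted p = 0.0195), both with higher means in T.chuii. That fit had 2 residual degrees of freedom, and the 9-library block fit in limma gave both genes an adjusted p of 0.9998. The pairs rest on the numbers in the titles, and the file headers carry other numbers.

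The 95% interval of the change lay inside 2-fold in either direction for 11137 genes (52.3%), unadjusted for the number of genes. That share was 76.46% among genes of 10 to 100 CPM, 71.61% from 100 CPM, 40.16% from 1 to 10 CPM and 8.05% below 1 CPM. Of all genes, 9591 had a higher and 11696 a lower mean in T.chuii, with a median log2 change of -0.03 and a median standard error of 0.35. Large differences leaned to the higher side, with 346 genes at least 2-fold higher against 130 lower, and 30 at least 4-fold higher against 3 lower. The 3 T.chuii values lay above all 3 DES values for 490 genes (2.3%) and below them for 531 (2.49%). Under upper quartile scaling this split became 629 above and 389 below, and with the 6 libraries alone 538 above and 447 below.

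**Figure D2:**
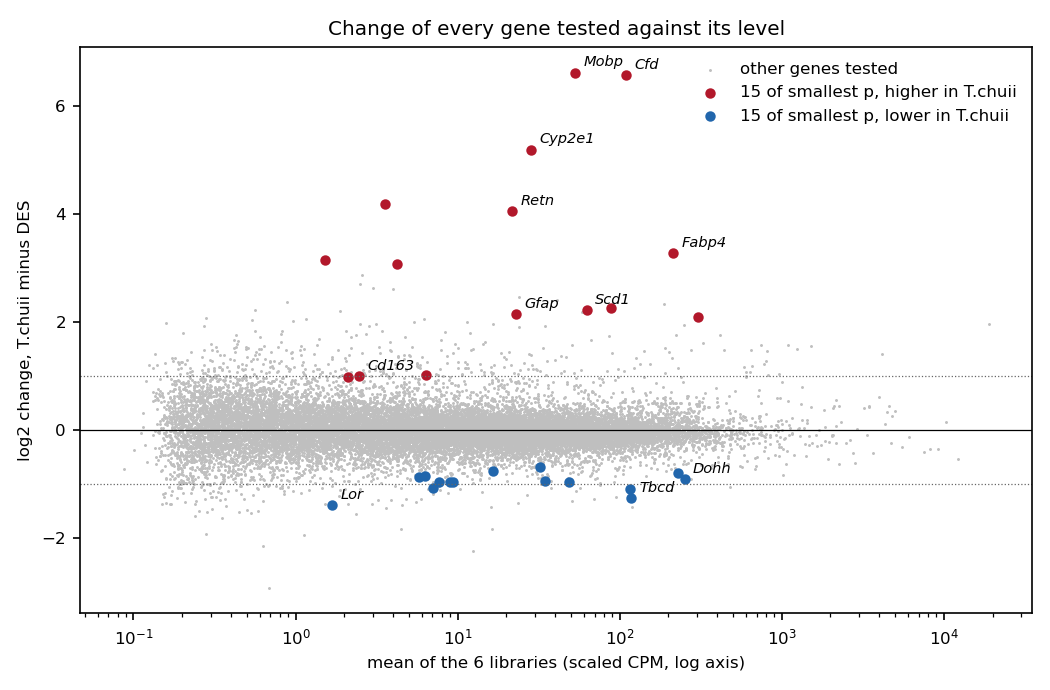
Log2 change of T.chuii minus DES (vertical axis) against the mean scaled CPM of the 6 libraries (horizontal log axis) for the 21287 genes tested, with the 15 genes of smallest p in each direction in colour and dotted lines at a 2-fold change. The coloured genes above the line reach a log2 change of 6.62 (Mobp) and those below it -1.40 (Lor), and none passed the test.

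The genes described first are the 15 in each direction with the smallest unadjusted p among protein-coding genes whose groups did not overlap and whose mean reached 1 CPM. That choice fixes their separation, so their values are a description. Each gene's change is given as log2 ± SE from the limma fit, and no member of these or later lists had an adjusted p under 0.05. Where values are set against each other, DES 1 to 3 come first and T.chuii 1 to 3 second. On the higher side they comprised 1 glial gene, 1 myelin gene, a large set of adipocyte and lipid synthesis genes, and a few others.

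Gfap, which encodes the intermediate filament of astrocytes and of stressed Müller glia, had the smallest p of these genes. It stood at 7.72, 6.17 and 12.3 CPM in DES 1 to 3 and at 49.3, 36.1 and 26.8 in T.chuii 1 to 3, a log2 change of 2.14 ± 0.46 (95% interval 1.11 to 3.17, limma adjusted p = 0.9999). The lowest T.chuii value was more than 2-fold the highest DES value, and the change was 1.87 without library 1 of both groups. The uninjected libraries ranged from 7.71 to 28.9 CPM, so the highest of them lay within the T.chuii values. Gfap lies on the minus strand of chromosome 11 at 102887336 to 102897200 (GRCm38.p6). Its adjusted p over all the alternative fits was between 0.0549 and 1.

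Other genes of Müller glia, the supporting glia of the retina, had smaller changes than Gfap. Of 16 Müller glia and astrocyte markers, 12 had a higher and 4 a lower mean, with a median log2 change of 0.18 beside -0.03 for all genes. Of these, 1, Gfap, had an unadjusted p under 0.05. T.chuii lay above DES without overlap for 4, where 2.3% of all genes did so and 0.747% had a higher mean at that p. These were Gfap, the secreted chaperone gene Clu, the glutamine synthetase gene Glul and the carbonic anhydrase gene Car14, the last 2 named after their values were seen. Clu stood at 2137, 1298 and 1839.8 CPM in DES and 2815, 2688 and 2137 in T.chuii (0.55 ± 0.27), where DES 1 and T.chuii 3 were equal to the nearest CPM, and Glul at 415, 402 and 389 against 422, 494 and 452 (0.18 ± 0.20). Car14 was at 163, 179 and 223 CPM in DES against 244, 226 and 233 in T.chuii (0.32 ± 0.20). The apolipoprotein gene Apoe, at 2063, 1451 and 1865 against 2844, 2588 and 1875 CPM, and the secreted factor gene Dkk3, at 1248, 745 and 774 against 877, 1109 and 874, overlapped between the groups.

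Genes of retinal gliosis and stress, which includes Gfap, had higher means in 11 of 18 cases (median 0.40, and 0.13 without library 1 of both groups). An unadjusted p under 0.05 was found for 3 of them, against 0.747% of all genes with a higher mean, which were Gfap and, named after their values were seen, the serine protease inhibitor gene Serpina3n and the transcription factor gene Cebpd. Serpina3n stood at 47.8, 36.8 and 52.5 CPM in DES and 93.4, 74.2 and 61.9 in T.chuii (0.74 ± 0.32), without overlap, and Cebpd at 45.7, 45 and 72.4 against 138, 112 and 59.7 (0.88 ± 0.31). The copper carrier gene Cp, with 169, 117 and 173 against 193, 215 and 198 CPM (0.42 ± 0.23), also did not overlap, which made 3 such members against 2.3% of all genes. The proteinase inhibitor gene A2m (-0.02 ± 0.61) and the hyaluronan receptor gene Cd44 (-0.50 ± 0.45) overlapped.

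All 13 tested members of the white and shared adipocyte list had a higher mean in T.chuii, with a median log2 change of 1.42. An unadjusted p under 0.05 was found for 5 of them and non-overlapping groups for 4, against 0.747% and 2.3% of all genes. Other defining adipocyte genes, Adipoq, Lep, Plin1, Cidec and Acvr1c were not analysed here. The tables used hold no gene below 1 read in any of the 9 libraries. The summed level of the list was 564, 266 and 315 CPM in DES 1 to 3 and 3895, 1019 and 458 in T.chuii 1 to 3. The groups overlapped in this sum, because T.chuii 3 lay below DES 1.

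Among single adipocyte genes, Cfd, which encodes the serine protease adipsin (complement factor D), stood at 0.883, 0.253 and 6.29 CPM in DES and 510.0, 123 and 15.9 in T.chuii (6.57 ± 1.50). Retn, the gene of the adipocyte hormone resistin, was at 1.06, 1.08 and 3.09 against 94.8, 23.3 and 7.43 CPM (4.05 ± 0.96). Fabp4, a fatty acid carrier, was at 36.6, 10.4 and 34.1 against 954, 181 and 61 (3.27 ± 0.94). In each of these genes T.chuii 1 was by far the highest library and T.chuii 3 the lowest of its group, nearest to the DES values. Car3, a carbonic anhydrase abundant in fat and muscle, followed the same order at 72.8, 70.9 and 119.6 CPM in DES against 1164, 260.5 and 151 in T.chuii (2.08 ± 0.58).

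The same order of T.chuii libraries was seen in further genes of fat cells. Adrb3, the beta-3 adrenergic receptor through which noradrenaline triggers lipolysis, stood at 0.0802, 0.236 and 0.304 CPM in DES and 6.45, 1.48 and 0.511 in T.chuii (3.14 ± 0.88). Adig, which encodes a small adipocyte protein, was at 0.16, 0.0674 and 0.359 against 17.2, 3.23 and 0.511 (4.18 ± 1.22), and Mrap, a melanocortin receptor accessory protein gene, at 0.842, 0.185 and 1.1 against 16.8, 5.35 and 1.19 (3.07 ± 0.96). These 3 genes were near the detection limit in DES, with as few as 4 reads in a library for Adrb3 and Adig and 11 for Mrap. Cyp2e1, a cytochrome P450 of liver and fat, stood at 0.702, 0.202 and 2.43 CPM in DES and 130.4, 31.8 and 4.07 in T.chuii (5.19 ± 1.39). Plin4, a lipid droplet coat gene named after its values were seen, had an unadjusted p under 0.05 with overlapping groups, at 3.25, 1.55 and 0.69 against 7.71, 4.8 and 2.04 CPM. Lpl, the lipoprotein lipase gene, overlapped as well, at 189.6, 86.9 and 69.3 against 503, 183 and 106 (1.05 ± 0.52).

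Markers of skeletal muscle, which adjoins the globe as fat does, mostly had higher means in T.chuii as well. All 20 fast muscle genes had a higher mean in T.chuii (median 1.22), and their summed level was 11108, 3226 and 2331 CPM in DES 1 to 3 and 22159, 10400.0 and 4675 in T.chuii 1 to 3. T.chuii 1 again led and T.chuii 3 was lowest of its group, but DES 1 exceeded T.chuii 2, which it did not for the adipocyte sum. Within DES, the fast muscle sum was lowest in DES 3 and the adipocyte sum in DES 2. None of the 20 had an unadjusted p under 0.05. The fast troponin gene Tnnt3 stood at 1235, 339 and 210.1 CPM in DES and 3029, 1175 and 610.4 in T.chuii (1.57 ± 0.76), and the actin gene Acta1 at 1378, 387 and 245 against 2235, 1098 and 430.1 (1.03 ± 0.71). Of 17 slow, cardiac and extraocular muscle genes 15 had a higher mean (median 0.85), including the myoglobin gene Mb (1.06 ± 0.74). An unadjusted p under 0.05 was found for 1, the nicotinamide riboside kinase gene Nmrk2 (1.91 ± 0.71, named after its value was seen), beside 0.747% of all genes with a higher mean. Among 7 brown adipocyte genes all had a higher mean (median 0.68), and Cidea of these is also in the white and shared list. None of the 7 had an unadjusted p under 0.05, and the defining gene Ucp1 was not analysed here. The part of adhering fat and muscle in these differences was not tested.

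The size of the adipocyte and muscle differences depended on single libraries. Without T.chuii 1 the adipocyte median was 0.64, with 13 of 13 means still higher, and Cfd and Retn gave log2 changes of 5.40 and 3.13. The fast muscle median was 0.71 without T.chuii 1, with 20 of 20 higher, and 0.70 to 1.94 over all 6 libraries left out in turn. The slow muscle list had a median of 0.32 without T.chuii 1, with 12 of 17 higher.

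The stretches of 250 bases upstream of Gfap, Cfd and Retn, the 3 genes of smallest p among those with higher means, are printed from RefSeq (GRCm38.p6), each 5′ to 3′ on its gene's strand. The Gfap stretch is chr11:102897201-102897450 on the minus strand, that of Cfd chr10:79890603-79890852 on the plus strand and that of Retn chr8:3655520-3655769 on the plus strand. 
Gfap: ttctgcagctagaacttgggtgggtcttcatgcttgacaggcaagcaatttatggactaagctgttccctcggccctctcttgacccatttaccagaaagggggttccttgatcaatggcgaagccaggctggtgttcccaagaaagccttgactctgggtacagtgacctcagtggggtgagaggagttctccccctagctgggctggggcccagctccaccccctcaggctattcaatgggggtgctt
Cfd: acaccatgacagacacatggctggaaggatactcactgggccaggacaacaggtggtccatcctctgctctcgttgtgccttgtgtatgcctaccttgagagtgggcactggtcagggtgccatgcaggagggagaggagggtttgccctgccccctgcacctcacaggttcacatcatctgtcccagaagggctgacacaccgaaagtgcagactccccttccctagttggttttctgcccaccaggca
Retn: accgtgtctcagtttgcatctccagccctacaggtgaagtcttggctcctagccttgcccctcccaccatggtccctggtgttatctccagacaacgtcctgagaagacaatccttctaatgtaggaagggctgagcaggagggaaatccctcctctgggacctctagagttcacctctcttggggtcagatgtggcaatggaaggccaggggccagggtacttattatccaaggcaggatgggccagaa
Both motifs searched in these stretches, on both strands, were chosen after the genes' values were known. TTGCNNAA, a form bound by C/EBP factors, which act in adipocyte differentiation, was in 9.56% of 32851 RefSeq upstream stretches, in 0 of 10 with an entry among the 15 higher genes and in 0 of 10 among the 15 lower genes. TTCNNNGAA, a form bound by STAT factors, which act on Gfap in glia, was in 7.02% of all, in 2 of the 10 higher (Agt, from position -172, and Adig, from position -97, counted from the transcript start) and in 1 of the 10 lower (Mbnl1, from position -226). None of the 3 printed stretches holds either form, so no base is in capitals, and this says only that these letters are not in these windows.

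Lipid synthesis genes outside the adipocyte list had higher means in most cases. Scd1, the desaturase that makes oleate and palmitoleate, stood at 23.7, 14.7 and 18.7 CPM in DES and 194, 87.3 and 38 in T.chuii (2.22 ± 0.61). Thrsp, a regulator of fatty acid synthesis, was at 14.7, 22.9 and 37.1 against 314, 104 and 39.2 (2.26 ± 0.65), where T.chuii 3 and DES 3 were nearly equal. Fasn, the fatty acid synthase gene, named after its values were seen, was at 33.8, 27.9 and 20.5 against 94.4, 62.4 and 31.9 (1.08 ± 0.41), with T.chuii 3 below DES 1. For Scd1, Thrsp and Fasn the T.chuii values were in the same order as those of the adipocyte genes. Of 18 fatty acid and triglyceride synthesis genes 17 had a higher mean (median 0.43, and 0.22 with 10 of 18 higher without T.chuii 1). The most abundant of them had smaller changes, with Scd2, the desaturase isoform of brain and skin, at 0.03 ± 0.35, the citrate lyase gene Acly at 0.01 ± 0.30 and the malic enzyme gene Me1 at 0.51 ± 0.25. Fatty acid oxidation and PPAR target genes had a higher mean in 15 of 20 cases (median 0.20), which became 7 of 20 without T.chuii 1 with a median of -0.04. Cholesterol synthesis and uptake genes were split 11 to 9 (median 0.01, and -0.25 with 1 of 20 higher without T.chuii 1), with the extremes at -0.31 and 0.19.

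Myelin genes, expressed by oligodendrocytes, differed by amounts that varied between libraries. Mobp, which encodes a myelin protein of oligodendrocytes, stood at 1.34, 0.303 and 0.718 CPM in DES and 237, 19.9 and 59.6 in T.chuii (6.62 ± 1.89), and ranged from 0.688 to 143 CPM in the uninjected libraries. The main myelin gene Mbp was at 66.8, 45.2 and 32.8 against 689.7, 94.4 and 194 (2.33 ± 0.93) without overlap. For both genes T.chuii 1 was highest, T.chuii 3 next and T.chuii 2 lowest of the group, an order unlike that of the adipocyte genes. Of the 11 oligodendrocyte and myelin genes tested 9 had a higher mean (median 0.67). Other genes of that list, Mog, Cldn11, Opalin, Hapln2, Olig1 and Olig2, were not analysed here. Without library 1 of both groups the median was 0.22. Mal, a membrane lipid raft gene also expressed in epithelia, went the other way (-0.32 ± 0.53). Schwann cell myelin genes had a median of 0.42, which turned to -0.07 without T.chuii 1.

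Further genes on the higher side act in macrophages, microglia and hormone signalling. Cd163, the haemoglobin scavenger receptor of resident macrophages, stood at 1.75, 1.62 and 1.57 CPM in DES and 3.33, 3.47 and 3.1 in T.chuii (1.00 ± 0.26), with little spread in either group. Kcnk13, a tandem pore domain potassium channel gene of microglia, was at 1.73, 1.37 and 1.19 against 3.24, 2.6 and 2.61 (0.98 ± 0.30). Agt, the angiotensinogen gene, was at 3.51, 4.03 and 5.11 against 11.2, 8.01 and 6.69 (1.02 ± 0.29). The uninjected libraries ranged from 2.01 to 2.52 CPM for Cd163, between the 2 groups, and from 2.13 to 3.1 for Kcnk13, across the T.chuii values. Over the list of 17 macrophage and microglia genes, 13 had a higher mean (median 0.36, and 0.17 without T.chuii 1) and none an unadjusted p under 0.05. The lysosomal protease gene Ctss gave 0.38 ± 0.27 and the complement gene C1qc 0.39 ± 0.26.

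The genes on the lower side differed by less, with log2 changes from -0.69 to -1.40. Lor, which encodes loricrin of the cornified envelope, stood at 2.17, 2.06 and 2.98 CPM in DES and 0.582, 0.742 and 1.53 in T.chuii (-1.40 ± 0.40). Ereg, the gene of the epidermal growth factor receptor ligand epiregulin, was at 8.67, 7.21 and 8.45 against 4.78, 3.38 and 5.33 (-0.86 ± 0.30). For both genes all T.chuii values also lay below the uninjected range, which was 1.69 to 2.47 CPM for Lor and 6.21 to 10.7 for Ereg. Akr1c18, an aldo-keto reductase that inactivates progesterone, was at 10.7, 11 and 13.4 against 9.15, 3.56 and 6.39 (-0.96 ± 0.35).

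Several lower genes act on proteoglycans or lipids. Chst12, a chondroitin sulfotransferase gene, stood at 69.9, 47.9 and 75 CPM in DES and 36, 25.2 and 36.9 in T.chuii (-0.97 ± 0.29). B4galt7, which adds a galactose in the linker of proteoglycan chains, was at 9.75, 9.42 and 19 against 6.13, 5.19 and 6.75 (-0.97 ± 0.32). Smpd4, a neutral sphingomyelinase gene, was at 42.2, 37.1 and 38.9 against 22.9, 20.5 and 31 (-0.69 ± 0.26). For B4galt7 DES 3 stood well above the other DES libraries, which were close to each other.

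Genes of transport, translation, transcription and repair made up most of the others. The dynein chain gene Dync1li1 stood at 33.4, 38.9 and 67.3 CPM in DES and 19.9, 23.8 and 25.3 in T.chuii (-0.94 ± 0.28). Dohh, which completes the hypusine residue of the translation factor eIF5A, was at 246, 258 and 485 against 125, 173 and 220.5 (-0.91 ± 0.31), and the tubulin chaperone gene Tbcd at 210.0, 101 and 181 against 91.5, 39.9 and 77.5 (-1.26 ± 0.46). In Dync1li1 and Dohh DES 3 was the highest library, and without it the changes were -0.65 and -0.58. Mbnl1, a splicing regulator, was at 258, 268 and 334 against 161, 117 and 229 (-0.81 ± 0.30), and the Mediator subunit gene Med18 at 7.7, 7.18 and 16.4 against 5.47, 3.82 and 5.28 (-0.97 ± 0.35). Rad54b, a recombination gene, was at 5.42, 6.13 and 11.5 against 3.49, 4.06 and 3.99 (-0.89 ± 0.34). The remaining 3 were Cracr2b, a calcium channel regulator (-1.08 ± 0.37), Ccdc166 (-0.77 ± 0.27) and Tmem223 (-1.10 ± 0.43), whose lowest DES and highest T.chuii values, 89.3 and 88.4 CPM, nearly met.

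**Figure D3:**
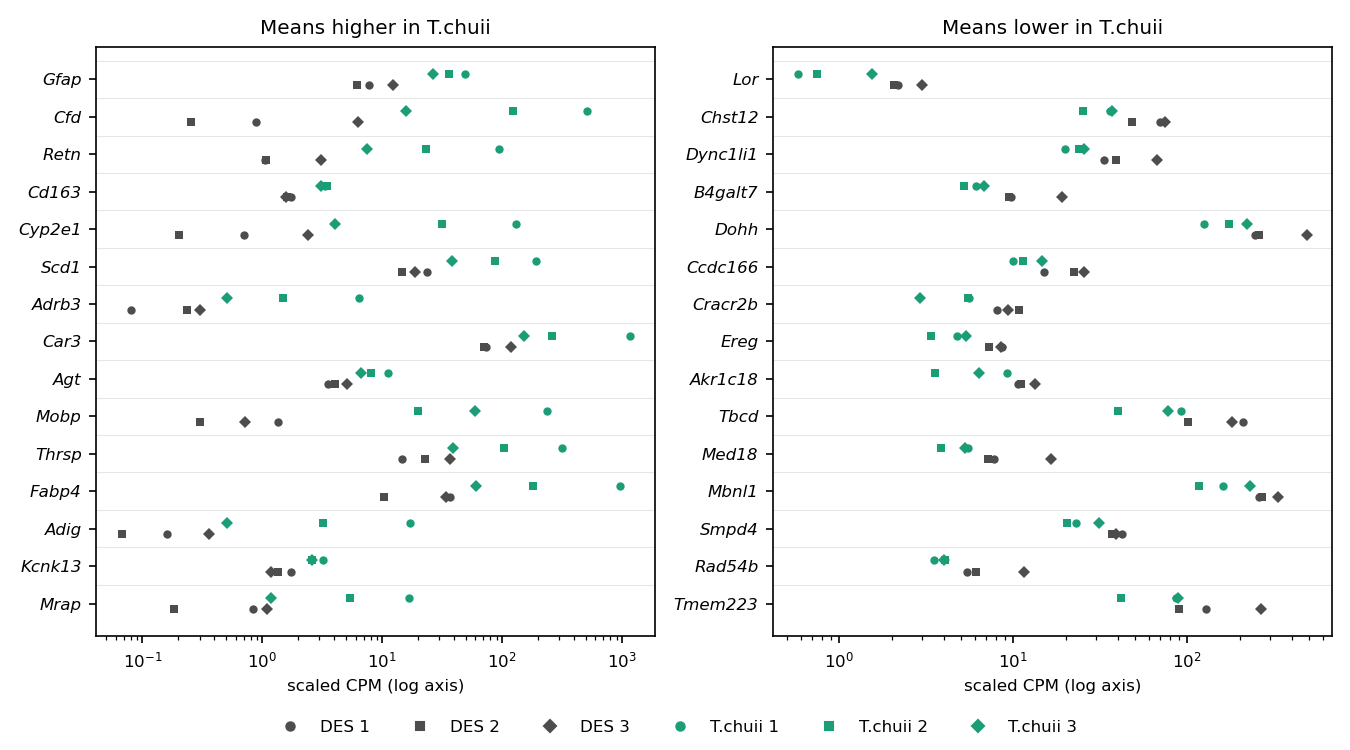
Scaled CPM in each library (horizontal log axis) of the 15 genes of smallest p with higher means in T.chuii (left) and the 15 with lower means (right), with DES in grey and T.chuii in green and a symbol for each library number. Groups do not overlap in any of them because the choice required it, and Cfd spreads from 15.9 to 510.0 CPM within T.chuii while Cd163 stays between 3.1 and 3.47.

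Genes of oxidant defence and of carotenoid and polyunsaturated fatty acid handling had small medians. Of 19 genes for superoxide dismutases, catalase, peroxidases and their thioredoxin and glutathione partners, 13 had a higher and 6 a lower mean, with a median log2 change of 0.11. The 95% interval lay inside 2-fold for 16 of the 19, beside 76.46% of genes of 10 to 100 CPM and 71.61% from 100 CPM, and none had an unadjusted p under 0.05. The median turned to -0.09 without DES 2, to -0.05 when T.chuii 1 was left out and to -0.07 without library 1 of both groups.

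Sod1, the cytosolic enzyme, stood at 42, 51.2 and 74.9 CPM in DES and 68.3, 68.6 and 65.5 in T.chuii (0.31 ± 0.30, interval -0.36 to 0.98). Sod2, the mitochondrial enzyme, was at 178, 137 and 204 against 292, 182 and 172 (0.29 ± 0.26, interval -0.28 to 0.86), and the secreted Sod3 at 89.1, 40.1 and 46.5 against 129, 72 and 46.2 (0.46 ± 0.51, interval -0.67 to 1.59). All 3 overlapped between the groups, and for Sod3 the interval reached past 2-fold. Catalase (Cat) was at 88.6, 84 and 75.2 against 128, 85.7 and 79 (0.21 ± 0.22, interval -0.28 to 0.70), and the glutathione peroxidase gene Gpx1 at 502, 279 and 507 against 614, 297 and 299 (-0.13 ± 0.34). The plasma glutathione peroxidase gene Gpx3 had the highest change of the list (0.73 ± 0.48, interval -0.32 to 1.79), and the peroxiredoxin genes Prdx1 and Prdx6 were at 0.02 ± 0.35 and -0.17 ± 0.36.

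Targets of NRF2, the factor that induces cytoprotective enzymes under oxidant stress, had a lower mean in 16 of 24 cases (median -0.12), turning to 0.02 without DES 3, and none had an unadjusted p under 0.05. Hmox1, the haem oxygenase gene, ranged widely in both groups, at 49.1, 7.4 and 34.9 CPM in DES and 19.8, 70.8 and 10.1 in T.chuii (0.08 ± 0.84). Nqo1, a quinone reductase gene, was at 143, 69.8 and 126 against 128, 59 and 83.8 (-0.33 ± 0.39). Its 2 highest libraries were DES 1 and T.chuii 1, both rich in corneal markers. The glutathione transferase gene Gsta4 gave -0.43 ± 0.44, and the ferritin genes Fth1 and Ftl1 gave 0.40 ± 0.29 and -0.12 ± 0.36.

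Carotenoid and retinoid handling genes had a higher mean in 16 of 24 cases (median 0.17). The carotenoid cleavage enzymes were at low levels, with Bco1, which makes retinal from beta-carotene, at 4.53, 1.74 and 2.73 CPM in DES and 3.59, 1.37 and 2.21 in T.chuii (-0.32 ± 0.48), and Bco2, which cleaves other carotenoids, at 2.53, 1.25 and 2.79 against 2.54, 1.88 and 1.57 (-0.06 ± 0.40). Scarb1, a receptor that takes up carotenoids and lipids, was at 87.2, 128 and 77.9 against 69, 116 and 109 (0.00 ± 0.26, interval -0.57 to 0.58). None of the 3 separated the groups. The visual cycle genes of the pigment epithelium and Müller glia overlapped between the groups and were lowest in DES 1, with Rpe65, the retinoid isomerase, at 148, 367 and 767 against 699.5, 388 and 718 (0.72 ± 0.76) and the retinal carrier gene Rlbp1 at 322, 635 and 661 against 508, 627 and 733 (0.26 ± 0.37). Rdh12, a photoreceptor retinol dehydrogenase gene, gave -0.41 ± 0.53. Only the retinol carrier gene Rbp4 of this list had an unadjusted p under 0.05, where 0.747% of all genes had a higher mean at that p. Rbp4 was at 4.81, 2.16 and 3.62 against 37.4, 16.6 and 4.18 CPM (2.01 ± 0.73, named after its values were seen). T.chuii 3 lay below DES 1, and the T.chuii values were in the same order as those of the adipocyte genes.

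Genes for the synthesis of polyunsaturated fatty acids were split 7 to 7, with a median of -0.01 whose sign differed in 10 of 20 alternatives. The desaturase genes that make long-chain omega-3 and omega-6 fatty acids had changes near 0, Fads1 standing at 131, 88.6 and 79.1 CPM in DES and 121, 88.9 and 87.6 in T.chuii (0.02 ± 0.34, interval -0.73 to 0.76) and Fads2 at 159, 108 and 90.9 against 133, 98 and 111 (-0.03 ± 0.32, interval -0.73 to 0.67). Elovl2, the elongase on the path to docosahexaenoic acid, was at 12.1, 29.8 and 26.2 against 8.25, 20.3 and 22.7 (-0.42 ± 0.45), and the photoreceptor elongase Elovl4 at 347, 817 and 691 against 209, 598 and 801 (-0.33 ± 0.51). Both were lowest in T.chuii 1, which was low in rod markers. Intervals lay inside 2-fold for 10 of the 14, beside 76.46% of all genes of 10 to 100 CPM and 71.61% from 100 CPM. T.chuii lay above DES without overlap for 1 of the 14, Fads6 (0.57 ± 0.33, named after its value was seen), beside 2.3% of all genes.

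**Figure D4:**
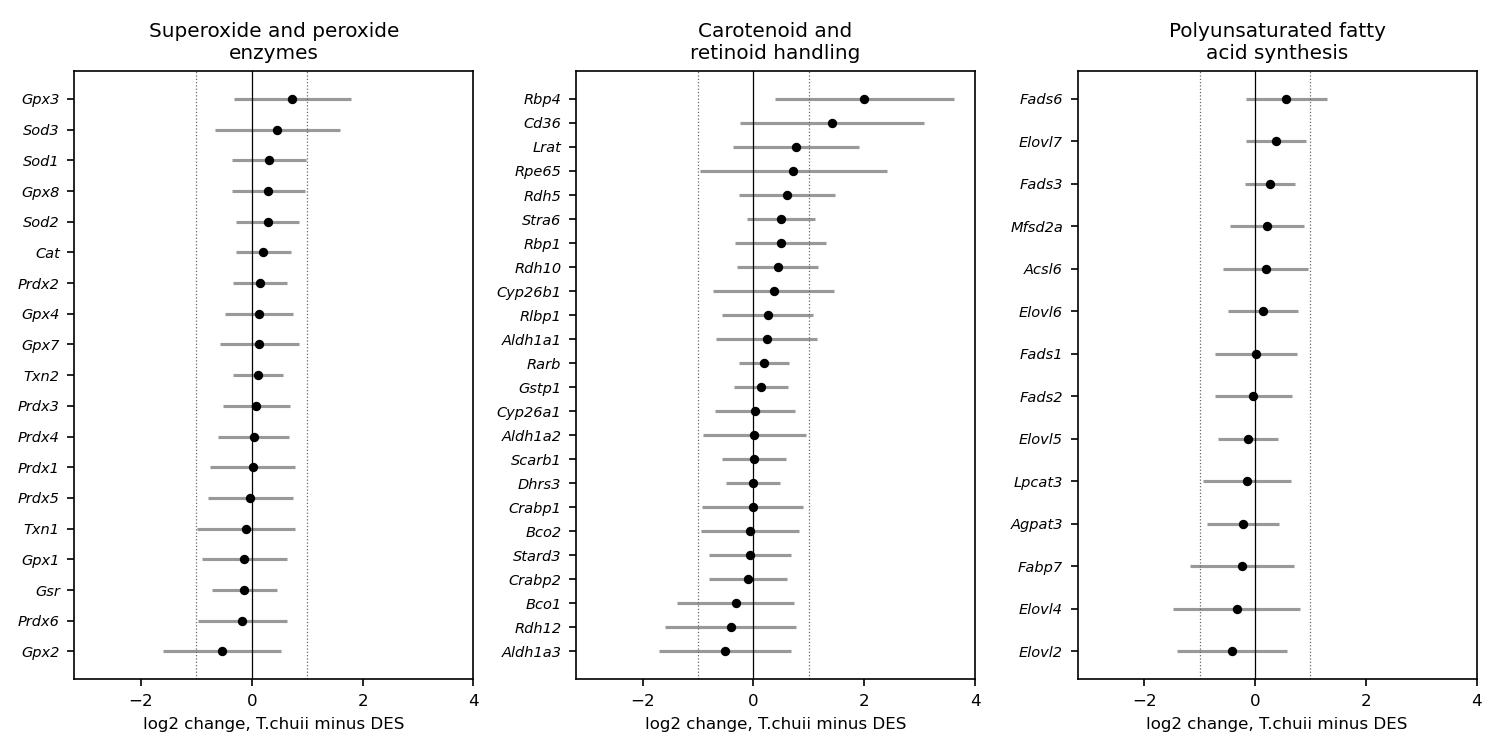
Log2 change of T.chuii minus DES (points) with its 95% interval (bars) for every tested member of the lists of superoxide and peroxide enzymes, of carotenoid and retinoid handling, and of polyunsaturated fatty acid synthesis, with dotted lines at a 2-fold change. Only the interval of Rbp4 leaves out 0, and 16, 10 and 10 members of the 3 lists have intervals inside the dotted lines, as do 52.3% of all genes tested.

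Genes of dry eye pathology did not pass the test either, and their intervals were wide. Tnf, the inflammatory cytokine gene, stood at 3.51, 4.11 and 5.16 CPM in DES and 5.61, 2.12 and 4.78 in T.chuii (-0.12 ± 0.59, interval -1.43 to 1.19). Il1b was at 2.09, 1.35 and 1.41 against 3.75, 1.22 and 0.567 (-0.22 ± 0.60, interval -1.54 to 1.10), with the highest and the lowest value of all 6 libraries both in T.chuii. Of 17 cytokine and inflammation genes 10 had a lower mean (median -0.12), with -0.48 when T.chuii 1 was left out and 0.25 when T.chuii 2 was. The NF-kappaB inhibitor gene Nfkbia gave 0.52 ± 0.30 and the alarmin gene Il1a -0.45 ± 0.61. Only the chemokine gene Ccl20 had an unadjusted p under 0.05, at 0.221, 2.11 and 0.773 CPM in DES and 0.489, 0.131 and 0.0567 in T.chuii (-2.16 ± 0.93, named after its values were seen), and its groups overlapped. The share of all genes with a lower mean at that p was 0.348%. Cytokine genes such as Il6, Il17a and Ifng were not analysed here.

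The matrix metalloproteinase genes Mmp9 and Mmp3, whose products degrade the epithelial barrier in dry eye, overlapped between the groups. Mmp9, the gelatinase gene, stood at 1.28, 3.67 and 3.45 CPM in DES and 2.19, 4.15 and 3.57 in T.chuii (0.34 ± 0.43), and Mmp3, the stromelysin gene, at 87.2, 56.7 and 162 against 129, 77.7 and 116 (0.17 ± 0.36). Of 15 protease and inhibitor genes 13 had a higher mean (median 0.34, and 0.05 without T.chuii 1), including the protease inhibitor genes Timp2 (0.34 ± 0.23) and Timp3 (0.34 ± 0.25).

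The ocular surface epithelium had lower means in T.chuii. All 16 corneal epithelium genes were lower (median -0.55), as were 10 of 12 squamous differentiation genes (median -0.49) and 9 of 11 conjunctival, mucin and goblet cell genes (median -0.33, and -0.01 without DES 2 and -0.71 without DES 1). Krt12, the corneal keratin gene, stood at 21142, 7792 and 12573 CPM in DES and 19573, 3997 and 8412 in T.chuii (-0.55 ± 0.62), and Krt5, of basal epithelial cells, at 5219, 2336 and 2528 against 3907, 1265 and 1685 (-0.62 ± 0.56). Library 1 was the highest of its group for both genes, and T.chuii 2 the lowest of all. Without T.chuii 2 the corneal median was -0.13 and the squamous median -0.01, and with T.chuii 1 left out they were -0.92 and -0.98. Whether unequal corneal sampling had a part in these differences was not tested.

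Surface barrier and water transport genes mostly overlapped between the groups. Aqp5, the water channel of corneal epithelium and lacrimal gland, was at 4232, 1622 and 2174 CPM in DES and 4704, 1138 and 1853 in T.chuii (-0.19 ± 0.59), and Aqp3 at 1423, 771 and 856 against 1334, 437 and 601 (-0.47 ± 0.47). The membrane mucin gene Muc4 was at 163, 114 and 93.8 against 163, 104 and 101 (-0.01 ± 0.42). Muc5ac, the goblet cell mucin, varied about 100-fold within DES, at 1, 99.9 and 11.6, and stood at 11, 31.4 and 8.53 in T.chuii (0.36 ± 1.41). The keratin gene Krt13 of conjunctival epithelium, named after its values were seen, was at 224, 246 and 226 against 189.8, 202 and 114 (-0.50 ± 0.44). It was the only 1 of the 11 tested in its list whose groups did not overlap, where T.chuii lay below DES for 2.49% of all genes. Chrm3, the muscarinic receptor of secretory cells that scopolamine blocks, was at 1.4, 2.43 and 1.88 against 1.07, 2.36 and 1.68 (-0.20 ± 0.39), and 11 of 15 muscarinic and cholinergic genes had a higher mean (median 0.18).

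Cell cycle and interferon genes had lower means throughout most of their lists. All 20 cell cycle genes were lower (median -0.62) and none had an unadjusted p under 0.05. The ribonucleotide reductase gene Rrm2 stood at 83.4, 42 and 61.7 CPM in DES and 91.5, 20.7 and 39.3 in T.chuii (-0.52 ± 0.53), and the cyclin gene Ccna2 at 70.1, 46 and 50.6 against 56.8, 24.2 and 35.5 (-0.58 ± 0.43). Of 23 interferon response genes 21 were lower (median -0.63), with Ifit1, an antiviral effector, at 111, 35.7 and 55.6 against 104, 8.27 and 27.5 (-1.08 ± 0.77). In these 3 genes library 1 was the highest of its group and T.chuii 2 the lowest of all libraries, as for the corneal keratins. The medians were -0.25 and -0.08 when T.chuii 2 was left out, and when T.chuii 1 was left out they were -1.05 and -1.17.

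Glucocorticoid-responsive genes had a higher mean in 15 of 17 cases (median 0.43, from 0.30 to 0.55 with each library left out in turn, and 0.24 with 9 of 17 higher without library 1 of both groups). Of these 2, the clock gene Per1 and the receptor feedback inhibitor gene Errfi1, had an unadjusted p under 0.05 and groups without overlap, against 0.747% and 2.3% of all genes, and both are named after their values were seen. Per1 stood at 5.01, 4.72 and 7.67 CPM in DES and 10.4, 12.4 and 8.28 in T.chuii (0.87 ± 0.32), and Errfi1 at 53.9, 44.8 and 52.5 against 127, 67.9 and 63 (0.70 ± 0.28). The most abundant members were less apart, with the kinase gene Sgk1 at 0.04 ± 0.23, the metallothionein gene Mt1 at 0.43 ± 0.43 and the leucine zipper gene Tsc22d3 at 156, 124 and 262 against 313, 216 and 212 (0.49 ± 0.30).

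Most other clock genes, unlike Per1, had a lower mean in T.chuii when all libraries were used. Of 18 circadian genes 12 had a lower mean (median -0.09, and 0.07 without T.chuii 1), with the nuclear receptor gene Nr1d1 at 133, 130.3 and 95.2 CPM in DES and 74.3, 87 and 104 in T.chuii (-0.43 ± 0.21). Immediate early genes had a lower mean in 14 of 20 cases (median -0.21, and -0.01 without DES 1). Jun, a subunit of the AP-1 factor, was at 256, 143 and 35.1 against 56.3, 43.3 and 37.6 (-1.25 ± 0.57), and its DES values differed more than 7-fold among themselves. Nr4a1, an early response nuclear receptor gene, was the single one with an unadjusted p under 0.05 and stood on the other side, at 7.02, 5.38 and 6.54 against 41.8, 19 and 9.36 (1.62 ± 0.68, named after its values were seen). The share of all genes with a higher mean at that p was 0.747%.

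All 18 complement genes had a higher mean (median 0.25), but this held for 9 of 18 without T.chuii 1, with a median of 0.02. Beside Cfd, the inhibitor genes Serping1 and Cd59a gave 0.30 ± 0.34 and 0.10 ± 0.21. All 13 mitochondrially encoded genes had a higher mean (median 0.40, and 0.20 without T.chuii 1), with the oxidase gene COX1 at 4876, 3336 and 4840.1 CPM in DES and 6529, 4666 and 4432 in T.chuii (0.26 ± 0.32). Stress pathways had medians whose sign differed between alternatives, -0.01 for the unfolded protein response, 0.02 for heat shock chaperones and -0.09 for p53 and apoptosis genes. The endoplasmic reticulum chaperone gene Hspa5 was at 808, 775 and 720.3 against 782, 649.5 and 730.5 (-0.09 ± 0.21). Intervals lay inside 2-fold for 14 of 18 unfolded protein response genes and 15 of 18 p53 and apoptosis genes. Among all genes this share was 76.46% at 10 to 100 CPM and 71.61% from 100 CPM.

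The rod, cone, interneuron and ganglion cell lists changed the sign of their median when a library was left out. Of 21 rod genes 19 had a lower mean (median -0.28), and 20 had a higher mean without T.chuii 1 (median 0.29). Cone genes (median -0.15) and bipolar, amacrine and horizontal cell genes (median -0.13) likewise turned to 0.34 and 0.39 without T.chuii 1. Ganglion cell genes had a median of 0.05, turning to -0.22 without T.chuii 3.

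Pigment epithelium genes had a higher mean in 17 of 20 cases (median 0.27) in a range from 0.25 to 0.38 with each library left out, and 0.10 without library 1 of both groups. Rgr, a retinal opsin of the pigment epithelium, was at 454, 918 and 1788 CPM in DES and 1926, 1205 and 1732 in T.chuii (0.79 ± 0.64), and the melanin pathway gene Dct at 1776, 1070.4 and 1247 against 1748, 1322 and 1093 (0.03 ± 0.29). A single member, the amino acid transporter gene Slc6a20a, had an unadjusted p under 0.05 and no overlap, at 16.1, 28.1 and 31.4 against 40.5, 33.6 and 37.5 (0.62 ± 0.27, named after its values were seen). Of all genes, 0.747% had a higher mean at that p and 2.3% had T.chuii above DES without overlap.

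All 6 lens crystallins tested, of 16 listed, had a higher mean on the log2 scale (median 1.46). For Cryba4 the mean CPM was nonetheless lower in T.chuii. The median turned to -0.61 without DES 2. Cryaa, the alpha-A crystallin gene, was at 28022, 154 and 20138 CPM in DES and 18715, 38281 and 8386 in T.chuii, and ranged from 0.261 to 12.7 in the uninjected libraries. All 7 erythroid genes had a higher mean (median 0.44), which turned to -0.52 without T.chuii 1, and the globin gene Hbb-bs was at 169, 113 and 221 against 881, 136 and 96.5 CPM. DES 2 stood apart for the lens and T.chuii 1 for blood.

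Over all 52 lists, 27 kept the sign of their median in all 20 alternatives. The highest medians among those belonged to the adipocyte list (1.42), fast muscle (1.22) and slow muscle (0.85), and the lowest to the interferon list (-0.63), the cell cycle (-0.62) and the corneal epithelium (-0.55). Lists of vessels, lymphatics, scleral matrix, lymphocytes, meibomian lipid synthesis and ion and water transport had medians between -0.12 and 0.13 that changed sign in at least 1 alternative. No list had a summed level that separated the 3 T.chuii from the 3 DES libraries.

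**Figure D5:**
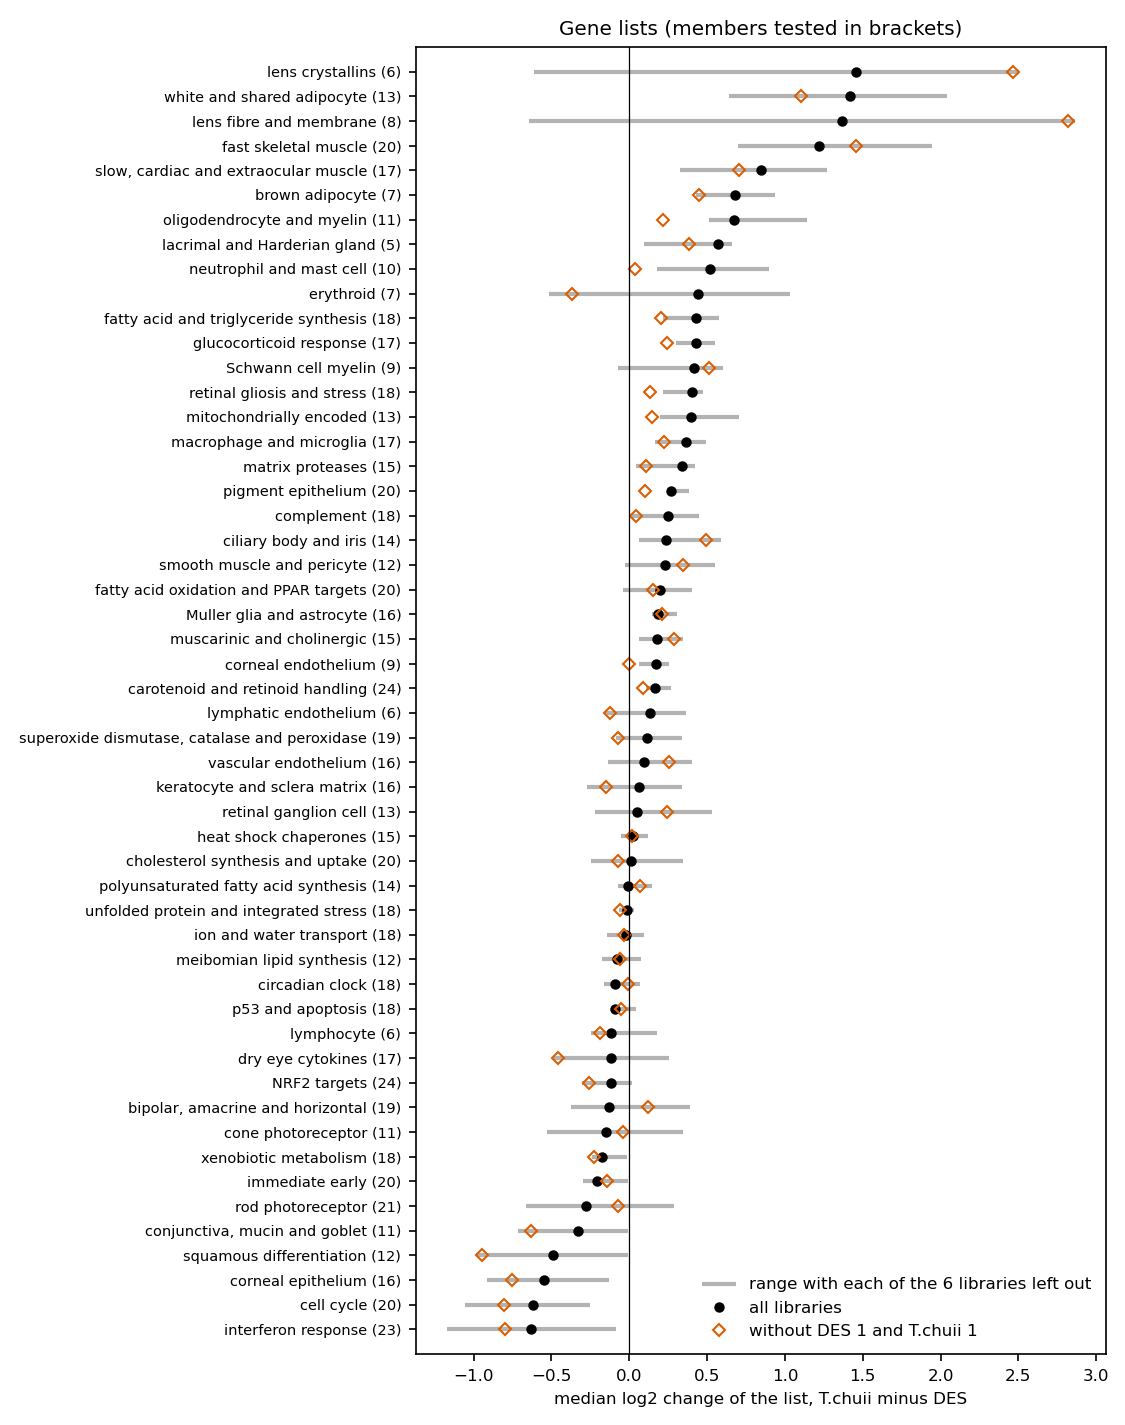
Median log2 change of T.chuii minus DES for each of the 52 gene lists with all libraries (black points), its range when each of the 6 libraries is left out in turn (grey bars), and its value without library 1 of both groups (orange diamonds), with the number of members tested in brackets. The bars of the lens, erythroid and rod lists cross 0, while those of the adipocyte, fast and slow muscle, cell cycle and interferon lists do not.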

How the data were processed

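Whole-eye mRNA was measured in 9 libraries. For the authors' tools, the submitters' processing notes name StringTie 2.1.3b, HISAT2 2.1.0, Trimmomatic 0.38, Bowtie2 2.3.4.1 and FastQC 0.11.7 and the build mm10, with neither roles nor parameters. The libraries were stranded, per the labels' protocols, while no source used here gives the strand setting of the counting, and overlapping antisense genes may share reads. Read counts and FPKM per gene, as deposited, stand in the last cells of each row, per the file headers. The tables hold 22587 genes, all with at least 1 read in each of the 9 libraries, so genes at 0 in any library were not analysed here. FPKM values entered only alternatives, as log2(FPKM + 0.1) and log2(FPKM + 1).

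Counts were scaled by the trimmed mean of M values. A gene was kept when 3 or more libraries reached 0.1985 CPM (10 reads in the median library) and its total was 15 reads or more, which left 21287. Limma 3.58.1 (voom, R 4.3.3) fitted 3 group means to the 9 libraries with 6 residual degrees of freedom and tested T.chuii minus DES, two-sided, with Benjamini-Hochberg adjustment. A fold is log2 and its error is the standard error. The code was tested on simulated data. With 3 libraries against 3, an exact permutation test of 1 gene cannot go below p = 0.1, and none was run.

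The genes named are the 15 of smallest p in each direction (protein coding in RefSeq, groups not overlapping, mean of at least 1 CPM), the 3 most abundant tested members of each of 52 lists, and a panel of 23 genes. Not every gene this rule selects is reported here. The comparison, lists and panel were chosen with earlier results of these data known. Of 22587 gene IDs 22534 were in the RefSeq table. Promoter motifs were chosen after the named genes' values were seen, and both searches run are reported.

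Replicate numbers are shared by the titles of both groups. Deviations from the group means correlated at 0.67, 0.44 and 0.20 for same-numbered libraries, although T.chuii 3 correlated more with DES 2 (0.59). The numbers were treated as pairs in a blocked fit. These correlations come from the same values that this fit tests, so they cannot show that same-numbered libraries were handled together. The file headers carry other numbers, 1, 2 and 4 for DES and 3, 4 and 5 for T.chuii, so the source of the pairing is the titles alone.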

Additional observations from a re-analysis of the deposited data

How the results depend on the processing

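The fit was repeated under 20 alternatives: 3 scalings, 2 filters, limma-trend, quality weights, 2 FPKM pseudocounts, the 6 libraries alone, the replicate block, a cornea-to-rod covariate, and libraries left out. The count of genes passing the adjusted threshold was 0 in all of them except the replicate block on 6 libraries, where it was 2. The 233 genes at an unadjusted p under 0.05 became 130 with a filter of 1 CPM, 868 with quality weights, 919 with the covariate, 464 without library 1 of both groups, 415 with the replicate block on 9 libraries and 1245 with the block on 6, and ranged from 162 (without T.chuii 2) to 594 (without DES 1) with 1 library left out. The 1021 genes without overlap became 5972 without library 1 of both groups and ranged from 1664 to 3833 with 1 library left out, where fewer libraries leave fewer values to overlap. The 11137 genes with intervals inside 2-fold became 18450 with log2(FPKM + 1), a scale that understates changes of low genes. The causes of the other shifts were not tested. With 1 library left out of a group of 3, the lists that turned sign included rods, cones, erythroid, lens, NRF2 targets and superoxide and peroxide enzymes, with the values given above. Intervals were widest for low genes, with 8.05% inside 2-fold below 1 CPM, and the part of depth in this was not tested.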
